A study of Mus musculus with 105 samples.

Results

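Liver tumours of mice with a deletion of β-catenin (BKO) were compared with liver tumours of mice with a deletion of the receptor MET (MKO). Both arose after diethylnitrosamine (DEN), a chemical carcinogen that hepatocytes activate. The comparison used 6 of the series' 105 libraries, 3 from BKO tumours and 3 from MKO tumours, and covered all 12966 listed genes. The libraries were taken by their labels, but the comparison was chosen with earlier results of these data known. Both groups had been given DEN and were sampled at 8 months, and the labels give them the genotypes beta catenin KO and cMet KO. The study's title places the losses in hepatocytes, but the labels name no Cre driver, sex or strain, and do not say whether the 3 libraries of a group came from 3 animals or whether a tumour piece held more than 1 nodule. The p-values below therefore set each difference against the spread between libraries. That spread was estimated over all 45 libraries of the sequencing group, not from the tumours alone. Non-tumour liver taken at the same age in both genotypes (3 libraries each) and DEN-induced tumours of wild-type (WT) mice (3 libraries) from the same sequencing group were set beside the comparison.

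β-Catenin, encoded by Ctnnb1, carries the WNT signal into the nucleus and also links cadherins to the cytoskeleton at cell junctions. In the liver WNT signalling maintains the pericentral zone, where hepatocytes around the central vein make glutamine and metabolise drugs. MET is the receptor of hepatocyte growth factor and supports survival, regeneration and defence against oxidative stress in hepatocytes.

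The transcripts of the targeted genes were examined first. Ctnnb1 (GRCm38 chromosome 9, 120929216 to 120960507) was read at 174.9, 182.1 and 160.0 normalised reads in BKO tumours and at 169.3, 142.8 and 140.0 in MKO tumours. Met (chromosome 6, 17463800 to 17573980) was read at 160.4, 138.4 and 174.5 in BKO tumours and at 152.0, 133.1 and 117.9 in MKO tumours. The groups overlapped for both genes. The log2 difference, BKO minus MKO, was 0.17 ± 0.14 (SE) for Ctnnb1 (limma adjusted p = 0.825) and 0.20 ± 0.14 for Met (adjusted p = 0.772). The libraries count reads near 3′ ends, where a transcript that has lost an internal exon is still counted, so these values do not check the labels.

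The 6 libraries held 15964220 to 20231121 reads, among 6650086 to 20231121 in their sequencing group. The library labelled MKO tumour replicate 3 stood apart from the other 5. On the first principal component of the tumour and non-tumour libraries, which held 45.1% of the variance, it lay at −6.32 and the other 5 between 12.6 and 35.9, with the BKO and MKO non-tumour libraries between −45.9 and −2.87. The WT tumours lay at 35.8, −0.48 and 29.5 on this component. Across genes MKO tumour replicate 3 correlated with the other MKO tumours at 0.960 and 0.966 and with the BKO tumours at 0.959 to 0.976. It was the highest or lowest of the 6 for 39.1% of genes, and BKO tumour replicate 1 was so for 38.5%. Results are also given without MKO tumour replicate 3. All 10 hepatocyte markers were read in all 6 libraries, and albumin (Alb) differed by 0.21 ± 0.28 (adjusted p = 0.911).

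Between BKO and MKO tumours 30 genes passed the test (limma, adjusted p below 0.05), 0.231% of the 12966 tested, with 17 higher (0.131%) and 13 lower (0.1%) in BKO. The largest fall was that of Limd1, a LIM-domain scaffold protein, and the largest rises were those of immunoglobulin light-chain genes. Of the 30 genes, 17 differed at least 2-fold on the deposited log2 scale, 13 of them higher and 4 lower. That scale compresses low values, so a gene below this limit can still differ more than 2-fold in reads. The libraries of the 2 genotypes did not overlap for 29 of the 30, where 1353 of all genes (10.4%) showed no overlap, and the exception was Flt4. The median difference of all genes was −0.01. Without MKO tumour replicate 3, 65 genes passed (0.501%), 23 of the 30 among them. Leaving out each of the 6 libraries in turn, 7 of the 30 passed every time, and each of the other 23 missed the threshold in 1 to 5 of the 6 fits. When only the 6 libraries were fitted, so that the spread was estimated from them alone, Limd1 was the single gene to pass (adjusted p = 0.0208). In this tissue RNA, fewer cells of a type and less RNA per cell cannot be told apart.

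**Figure D1:**
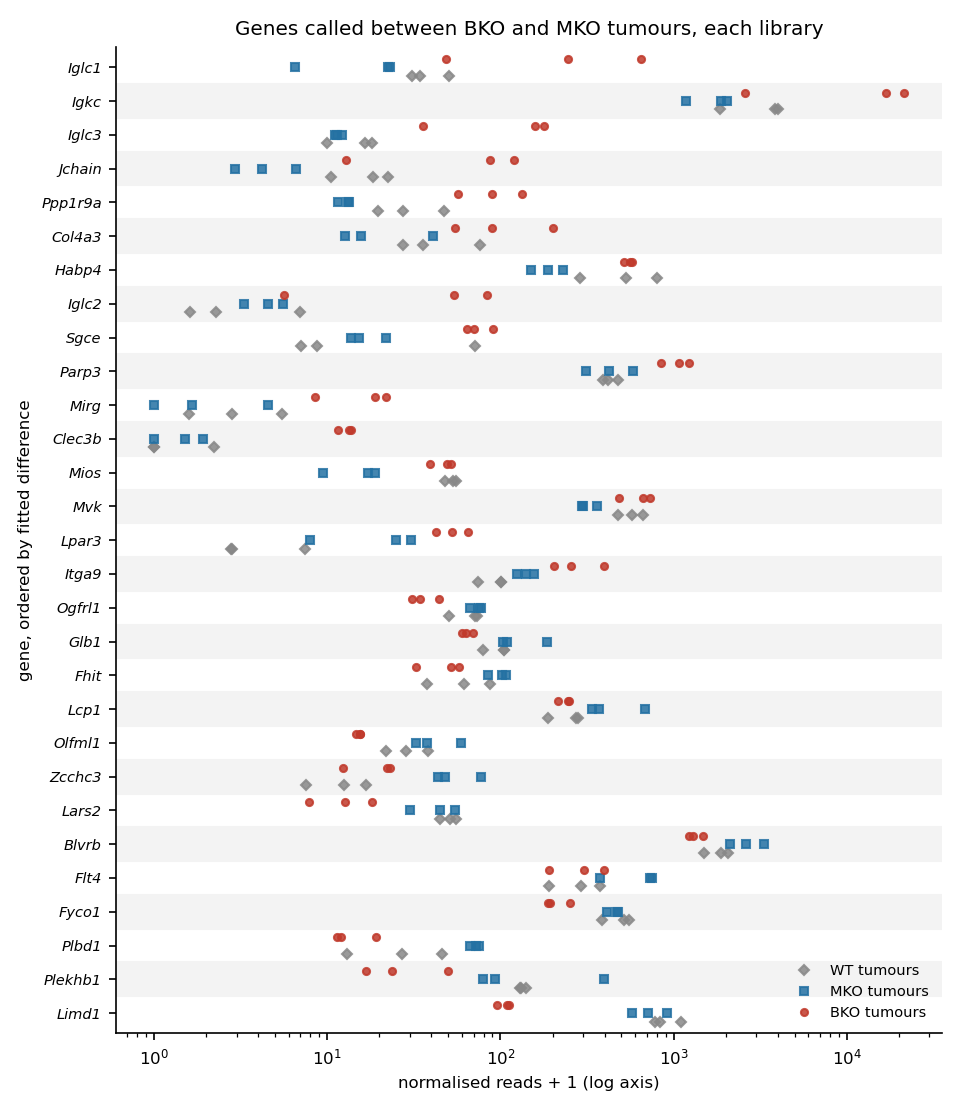
Normalised reads plus 1 (log axis) of 29 of the 30 called genes in each BKO (circles), MKO (squares) and WT (diamonds) tumour library, ordered from the largest rise in BKO at the top to the largest fall at the bottom. Limd1 lies near 100 reads in the 3 BKO tumours and above 500 in the 3 MKO and the 3 WT tumours, whereas the immunoglobulin genes are high in 2 of the 3 BKO tumours.

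Limd1 (chromosome 9, 123478706 to 123521552) encodes a scaffold that takes part in Hippo signalling and microRNA silencing. It was read at 94.2, 111.6 and 108.2 in the BKO tumours and at 708.6, 909.9 and 572.8 in the MKO tumours. Every BKO value lay below every MKO value, and the WT tumours, at 1108, 833.3 and 783.5, lay with the MKO tumours. The mean was 6.98-fold lower in BKO, and the log2 difference was −2.51 ± 0.18 (adjusted p = 6.37e-12). It held in each fit that left out 1 tumour library, with an adjusted p of at most 6.68e-10.

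Immunoglobulin genes were the largest rises. Igkc, the κ light-chain constant region, was read at 16787, 21532 and 2566 in BKO and at 1877, 1179 and 2044 in MKO tumours, a difference of 2.54 ± 0.56 (adjusted p = 0.0333). Iglc1, a λ constant region, was read at 650.4, 245.8 and 47.6 in BKO and at 21.4, 5.53 and 22.0 in MKO (2.65 ± 0.46, adjusted p = 0.00276). Iglc3 rose by 2.0 ± 0.30 (adjusted p = 0.000555) and Iglc2 by 1.38 ± 0.28 (adjusted p = 0.0146). In each of these genes BKO replicates 1 and 2 were high and BKO replicate 3 was the lowest of its group while still above every MKO tumour. For Iglc2 this margin was slight, at 4.66 in BKO replicate 3 against 4.54 in MKO replicate 3. The λ constant genes are near-identical copies, so how reads divided among them is uncertain. Jchain, which joins secreted IgA and IgM, was read at 86.6, 119.0 and 11.9 in BKO and at 5.59, 3.22 and 1.94 in MKO (1.84 ± 0.32, adjusted p = 0.00286). Igkc was not called without BKO replicate 1 (adjusted p = 0.167) or 2 (0.255) or without MKO replicate 1 (0.0896) or 2 (0.132), and Jchain not without BKO replicate 2 (0.0643). Iglc2 was not called without BKO replicate 1 (0.167) or 2 (0.13), without MKO replicate 1 (0.0674) or 2 (0.0675), or with limma-voom (0.146).

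The B and plasma cell list held 19 measured genes, of which 3 rose (Igkc, Jchain, Iglc2), where 0.131% of all genes did, and 0 fell. Each of the 3 lost its call in at least 1 fit without 1 library, and 17 of the 19 differences lay above 0 (median 0.51, against −0.01 for all genes). Heavy-chain genes had the same shape without passing. Igha, the IgA heavy chain, was read at 2035, 2615 and 291.5 in BKO and at 166.7, 59.9 and 233.9 in MKO (2.88, adjusted p = 0.0811), and Ighg2c at 621.3, 1289 and 50.7 against 49.3, 32.2 and 17.5 (2.85, adjusted p = 0.0761). Summed over the list, BKO tumours held 20929, 27373 and 3314 normalised reads, MKO tumours 1604 to 2586 and WT tumours 2493 to 5439. In non-tumour liver the list's median difference was 0.18 with 0 of 19 called.

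Ppp1r9a, an actin-binding scaffold also called neurabin, was read at 55.8, 89.0 and 132.0 in BKO and at 12.2, 10.6 and 12.3 in MKO (1.74 ± 0.27, adjusted p = 0.000555). The lowest BKO value was more than 4 times the highest MKO value, and WT tumours (18.5 to 46.3) lay between. Col4a3, a basement membrane collagen chain, was read at 53.5, 89.0 and 199.3 against 14.7, 39.6 and 11.7 (1.54 ± 0.32, adjusted p = 0.0146, or up to 0.173 with 1 library left out, not called without BKO replicate 2 or 3 or MKO replicate 1 or 3). Sgce, which encodes ε-sarcoglycan, rose by 1.36 ± 0.28 and Itga9, an integrin subunit, by 0.86 ± 0.18 (adjusted p = 0.0146 and 0.0189). Lpar3, a receptor for lysophosphatidic acid, was read at 41.3, 64.2 and 51.8 in BKO and at 29.5, 6.91 and 24.0 in MKO (0.89 ± 0.21, adjusted p = 0.0488). Clec3b, which encodes tetranectin, was read at 12.79, 10.53 and 12.43 in BKO and at no more than 0.921 in MKO tumours. With 1 library left out the adjusted p reached 0.0909 for Sgce, 0.232 for Itga9, 0.266 for Lpar3 and 0.0622 for Clec3b.

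Further rises were those of Habp4, an RNA- and hyaluronan-binding protein, Parp3, an ADP-ribosyltransferase of DNA break repair, Mios, a subunit of the GATOR2 complex upstream of mTORC1, and Mvk, mevalonate kinase. Habp4 was read at 558.0, 574.8 and 517.7 in BKO and at 229.2, 148.3 and 188.6 in MKO (1.44 ± 0.30, adjusted p = 0.0146). Parp3 was read at 843.9, 1232 and 1071 against 585.6, 423.9 and 311.0 (1.23 ± 0.24, adjusted p = 0.0138, or 0.0681 without MKO replicate 3 and 0.0761 without BKO replicate 2). The groups stood apart for both genes, and WT tumours reached the BKO level for Habp4 (286.1 to 802.0) but not for Parp3 (389.6 to 477.3). Mios was read at 38.4, 51.1 and 48.1 in BKO, at 17.8, 16.1 and 8.42 in MKO and at 46.6 to 54.8 in WT tumours (0.96 ± 0.16, adjusted p = 0.00126). Mirg, a non-coding RNA of the imprinted Dlk1-Meg3 region, was read at 7.56, 17.9 and 20.7 in BKO and at 3.56, 0 and 0.648 in MKO (1.07 ± 0.22, adjusted p = 0.0146). Meg3, of the same region, was read at 569.0, 2636 and 1980 in BKO and at 290.8, 15.7 and 563.8 in MKO (2.92, adjusted p = 0.142, or 3.73 and 0.0349 without MKO replicate 3). Dlk1 overlapped between the genotypes and had the other sign (−0.61, adjusted p = 0.728, or 0.37 without MKO replicate 3). The adjusted p reached 0.105 for Habp4 and 0.128 for Mirg with 1 library left out.

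Besides Limd1, 12 genes were lower in BKO tumours. Plbd1, a phospholipase B-like protein, was read at 18.02, 11.1 and 10.4 in BKO and at 74.2, 70.9 and 66.1 in MKO (−1.44 ± 0.23, adjusted p = 0.00126), with WT tumours spread from 11.95 to 44.9. Plekhb1, a membrane protein with a pleckstrin homology domain, was read at 15.7, 22.6 and 48.7 against 92.0, 78.8 and 394.0 (−1.76 ± 0.36, adjusted p = 0.0146). Without MKO replicate 3, the highest of these, its difference was −1.12 (adjusted p = 0.113), and it was not called without BKO replicate 1 (0.0908) or 2 (0.0667). Fyco1, an adaptor that moves autophagosomes along microtubules, was read at 252.2, 193.2 and 187.9 in BKO and at 410.7, 469.9 and 473.7 in MKO (−1.01 ± 0.18, adjusted p = 0.00482). Blvrb, a biliverdin reductase of haem breakdown, was read at 1229, 1300 and 1473 against 3343, 2112 and 2630 (−0.98 ± 0.19, adjusted p = 0.0138). Lars2, the mitochondrial leucyl-tRNA synthetase, and Glb1, the lysosomal β-galactosidase, fell by 0.98 and 0.79 on the log2 scale. Leaving out 1 library, the adjusted p reached 0.131 for Blvrb, 0.0643 for Lars2 and 0.198 for Glb1.

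The other falls included markers of endothelium and leukocytes. Flt4, the VEGF-C receptor of lymphatic and sinusoidal endothelium, was read at 190.1, 304.3 and 397.6 in BKO and at 726.9, 745.9 and 375.2 in MKO (−0.98 ± 0.20, adjusted p = 0.0150, and −1.29 without MKO replicate 3). It was not called without BKO replicate 1 (adjusted p = 0.167) or 2 (0.0622) or without MKO replicate 1 (0.16) or 2 (0.129). It was the single called gene of 27 endothelial markers, whose median difference was 0.06. Lcp1, the actin bundler L-plastin of leukocytes, was read at 247.6, 215.3 and 243.8 against 685.2, 337.7 and 371.9 (−0.84 ± 0.16, adjusted p = 0.00922). Zcchc3, a sensor cofactor of antiviral defence, fell by 0.95 on the log2 scale, the olfactomedin-like gene Olfml1 by 0.84, the diadenosine hydrolase Fhit by 0.81 and Ogfrl1 by 0.71. None of these 5 kept its call in every fit without 1 library. Their adjusted p reached 0.135 for Lcp1, 0.165 for Zcchc3, 0.292 for Olfml1, 0.175 for Fhit and 0.0822 for Ogfrl1.

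Called genes were more frequent near Ctnnb1 than elsewhere, while near Met the share rests on 1 gene. Of 87 genes within 10 Mb of Ctnnb1, 6 were called (6.9%): Limd1, Fyco1, Lars2 and Glb1 lower, and Clec3b and Itga9 higher. Of 33 genes within 10 Mb of Met, 1 was called (3.03%), Mios, and of 12568 genes elsewhere 23 were called (0.183%). Limd1, Lars2, Fyco1 and Clec3b lay 2.19 to 2.83 Mb from Ctnnb1, Itga9 2.03 Mb and Glb1 6.45 Mb. In all 6 genes near Ctnnb1 the WT tumour mean was nearer to MKO than to BKO, and for Mios, 9.23 Mb from Met, it was nearer to BKO. Outside these windows on the same chromosomes lay Parp3 at 14.5 Mb from Ctnnb1, and Ppp1r9a, Sgce, Igkc and Plbd1 at 12.3, 12.7, 53.2 and 119.04 Mb from Met. The WT mean was nearer to MKO for Parp3, Ppp1r9a, Sgce and Igkc and nearer to BKO for Plbd1. Asns, which makes asparagine and lies 9.77 Mb from Met, was read at 1357, 45.8 and 164.6 in BKO and at 754.9, 1184 and 828.1 in MKO (−1.81, adjusted p = 0.329). The part that the alleles' surrounding DNA plays in these differences was not tested.

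**Figure D2:**
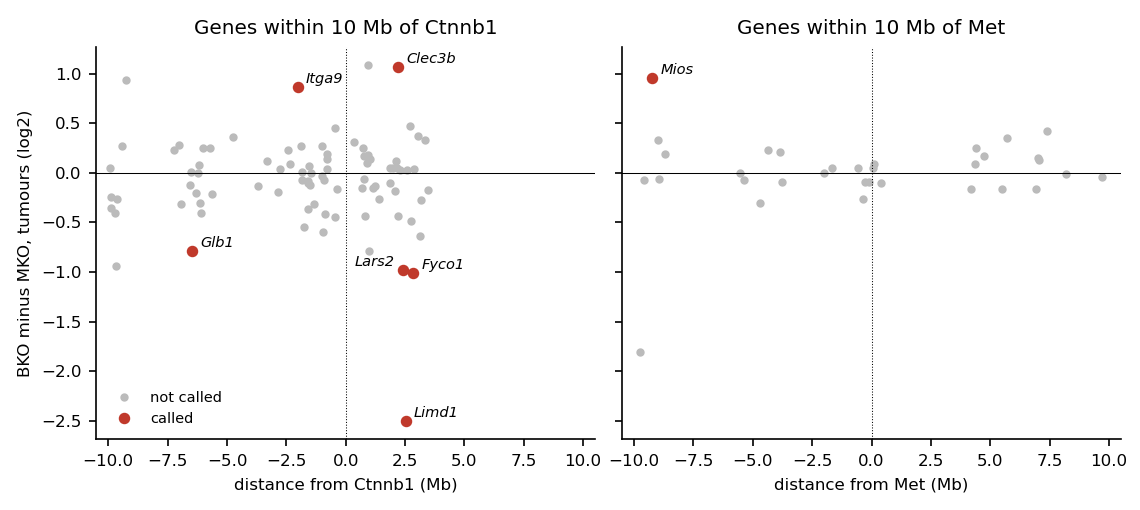
Log2 difference, BKO minus MKO tumours, of each measured gene against its distance in Mb from Ctnnb1 (left) and from Met (right), with called genes in red. Limd1, at 2.52 Mb from Ctnnb1, has the lowest value in the left panel (−2.51), and in the right panel Mios is the called gene (0.96).

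The same pair of genotypes was then compared in non-tumour liver, in libraries that do not enter the tumour difference, although they enter the estimate of its spread. The labels do not say whether these libraries came from the same mice as the tumours, and the fit treats them as separate. In non-tumour liver 92 genes passed (0.71%), 40 higher (0.308%) and 52 lower (0.401%) in BKO. Of the 30 genes called in tumours, 27 differed in the same direction in non-tumour liver and 11 passed there too, each in the same direction. These were Limd1, Ppp1r9a, Habp4, Parp3, Mios, Itga9, Plbd1, Plekhb1, Fyco1, Blvrb and Lars2. Limd1 was read at 132.8, 222.2 and 155.5 in BKO and at 565.6, 502.6 and 389.6 in MKO non-tumour liver (−1.39 ± 0.18, adjusted p = 2.4e-05). Ppp1r9a differed by 1.80 (adjusted p = 0.000225) and Habp4 by 1.69 (adjusted p = 0.00186), and their libraries did not overlap there either. The immunoglobulin genes did not pass, with Igkc at 0.83 (adjusted p = 0.533) and Iglc1 at 1.28 (adjusted p = 0.174). Across all genes the tumour and non-tumour differences correlated at r = 0.374, a description over genes, which are not independent.

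**Figure D3:**
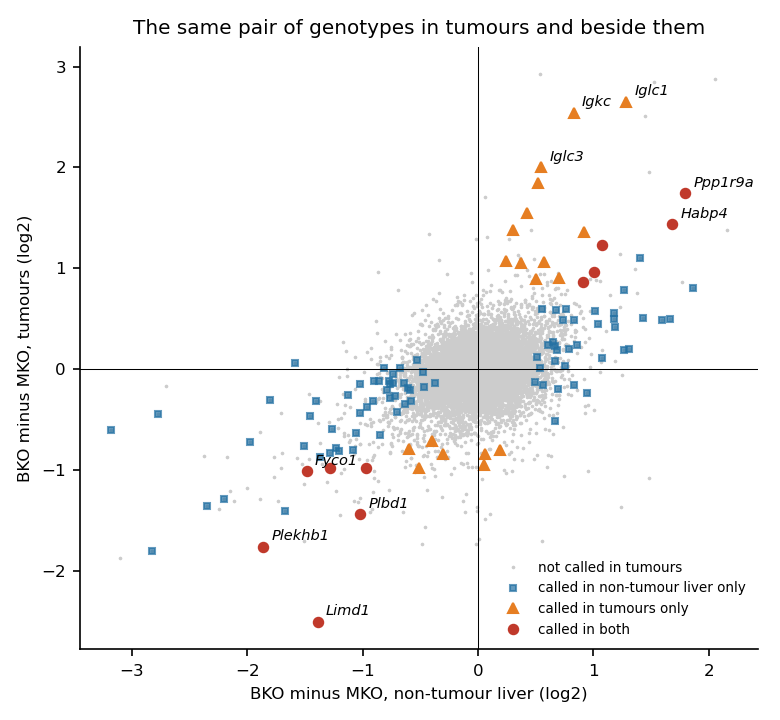
Log2 difference, BKO minus MKO, of each of 12966 genes in non-tumour liver (horizontal) and in tumours (vertical), with genes marked by where they passed. The 11 genes called in both comparisons lie at the lower left or the upper right, while Igkc and Iglc3 lie high with small non-tumour values (0.83 and 0.55).

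Whether the difference between genotypes was another one in tumours than in non-tumour liver was tested as an interaction, and 2 genes passed (0.0154%), 1 with a positive value (0.00771%) and 1 with a negative one (0.00771%), where 864 had an unadjusted p below 0.05. Abcg8, a subunit of the sterol exporter of bile, differed by 0.06 in tumours, with 613.2, 1078 and 1087 reads in BKO and 771.1, 701.7 and 1165 in MKO. In non-tumour liver it was read at 442.5, 624.6 and 442.0 in BKO and at 1673, 1438 and 1548 in MKO (−1.59, adjusted p = 6.3e-05). Srpx2, a secreted protein of vessel growth, was lower in BKO tumours by 0.52 on the log2 scale, which did not pass (adjusted p = 0.153), and higher in BKO non-tumour liver (0.67, adjusted p = 0.0165). For Limd1 the interaction was −1.12 (adjusted p = 0.302), so its larger tumour difference did not pass as a difference. The count was 11 without MKO tumour replicate 3 and 0 when only the groups concerned were fitted.

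Of 24 cholesterol synthesis genes 1 rose in BKO tumours, Mvk, and 0 fell. All 24 differences lay above 0 (median 0.63), and 23 did after scaling by total reads. In 15 genes every BKO library lay above every MKO library, where 4.97% of all genes did so. Mvk was read at 666.1, 731.7 and 480.4 in BKO and at 359.9, 297.6 and 295.5 in MKO (0.91 ± 0.21, adjusted p = 0.0461). It kept its call in 1 of the 6 fits that left out 1 library, that without BKO replicate 3, and the adjusted p of the other 5 was 0.0719 to 0.215. Hmgcs1, which makes the precursor of mevalonate, was read at 777.7, 839.1 and 644.0 against 170.8, 130.8 and 231.3, the widest gap of the list (1.95 ± 0.48, adjusted p = 0.0742). Cyp51, a demethylase of the sterol ring, was read at 941.6, 898.6 and 690.6 against 435.6, 314.7 and 545.0 (0.94, adjusted p = 0.0761, or 1.12 and 0.0349 without MKO replicate 3). In WT tumours Hmgcs1 was read at 334.9, 1226 and 1938 and Cyp51 at 861.6, 1109 and 1534. The list's median was 0.51 in non-tumour liver, where 1 of its genes passed, Dhcr7 (1.26, adjusted p = 0.0234).

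NRF2 targets, which detoxify electrophiles and restore reduced glutathione, had differences of the other sign. Of 31 measured genes 0 passed and 30 lay below 0 (median −0.45, and −0.45 without MKO replicate 3), and in 7 every BKO library lay below every MKO library, where 5.46% of all genes did so. Nqo1, a quinone reductase, was read at 87.8, 261.1 and 192.6 in BKO and at 649.6, 399.4 and 451.6 in MKO (−1.42 ± 0.39, adjusted p = 0.136). Cbr3, a carbonyl reductase, was read at 202.8, 134.2 and 164.6 against 1027, 404.5 and 316.9 (−1.49, adjusted p = 0.33). Both groups were apart for these 2 genes, but the WT tumours spanned them, from 61.6 to 511.0 for Nqo1 and from 17.3 to 631.7 for Cbr3. Haem oxygenase Hmox1 was read at 30.8, 34.2 and 18.1 in BKO and at 82.9, 52.5 and 58.3 in MKO (−0.80, adjusted p = 0.211). In non-tumour liver the list's median was −0.47 and 3 genes were lower in BKO, among them Gstm1 (−1.21, adjusted p = 0.0314) and Hmox1 (−1.08, adjusted p = 0.0229).

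**Figure D4:**
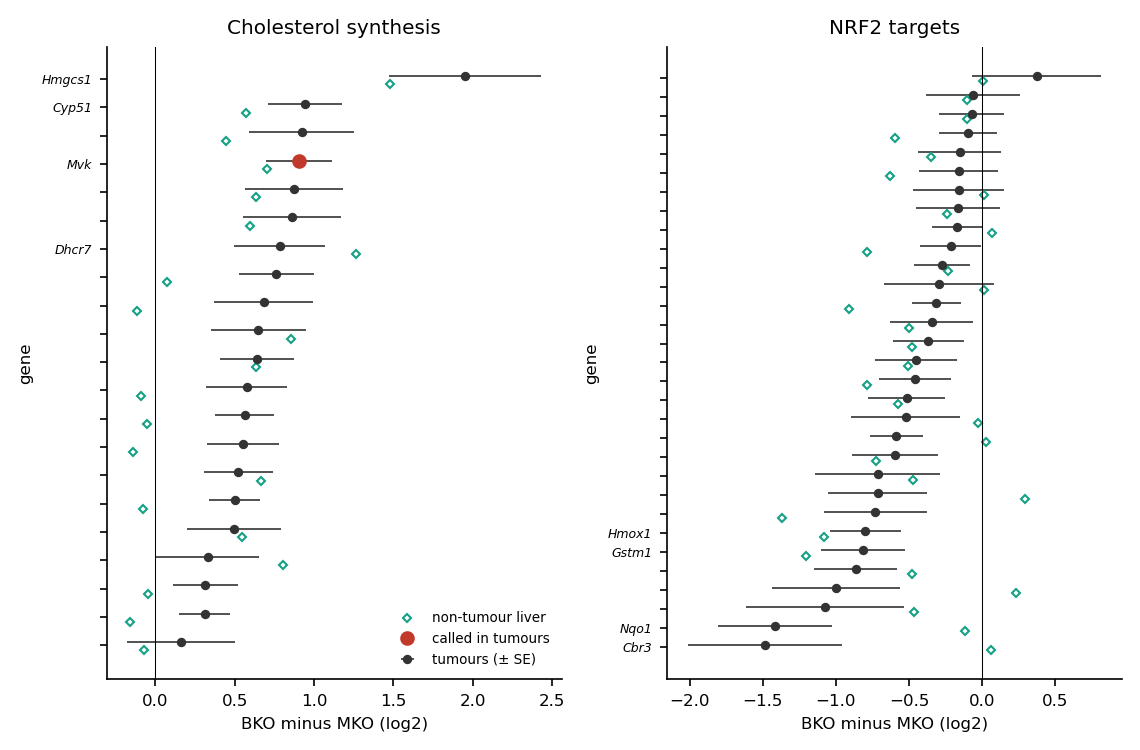
Log2 difference, BKO minus MKO, of cholesterol synthesis genes (left, 21 of 24) and NRF2 targets (right, 31), 1 gene per line, in tumours (filled, ± SE) and in non-tumour liver (open diamonds), with Mvk in red as the called gene and the genes described in the text named. Hmgcs1 has the largest rise in the left panel (1.95), and 30 of the 31 tumour values in the right panel lie below 0.

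Kupffer cell and macrophage markers had none called in BKO against MKO tumours, but most values were negative. Of 34 genes 0 passed, 29 lay below 0 (median −0.46) and in 12 every BKO library was below every MKO library, where 5.46% of all genes showed this. Without MKO replicate 3 the median was −0.86 and 3 genes passed: the lipid receptor Trem2 (−1.99, adjusted p = 0.0072), the lysosomal Cd68 (−1.46, adjusted p = 0.0287) and the protease Ctss (−1.29, adjusted p = 0.0463). Trem2 was read at 51.1, 37.4 and 36.8 in BKO and at 420.9, 129.5 and 39.5 in MKO. Gpnmb, a marker of lipid-laden macrophages, was read at 43.0, 21.6 and 44.5 against 1217, 84.3 and 27.9. MKO replicate 1 held the highest values of both, and MKO replicate 3 was at the BKO level. Markers of resident Kupffer cells were arranged otherwise: Clec4f was read at 234.8, 595.9 and 493.4 in BKO and at 280.1, 558.4 and 979.1 in MKO, and Timd4 at 3.49, 23.7 and 17.1 against 1.02, 5.07 and 40.8, with MKO replicate 3 the highest for both. C1qb, a complement subunit made by macrophages, was read at 2048, 1976 and 1509 in BKO and at 5807, 3480 and 2523 in MKO (−1.01, adjusted p = 0.279). WT tumours (977.5 to 1827) reached no higher than the BKO tumours for C1qb.

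Stellate cell and fibroblast markers had 0 of 36 called and 34 below 0 (median −0.30, and −0.53 without MKO replicate 3, when 1 gene passed). Their summed level was 14073 to 16099 normalised reads in BKO, 13277 to 26733 in MKO and 9942 to 17860 in WT tumours. In non-tumour liver the list's median had the other sign (0.28), with 0 called. In the MKO tumours the mean log2 level of the stellate list was 8.23, 7.83 and 7.35 and that of the macrophage list 8.27, 7.88 and 7.63, with replicate 1 highest and replicate 3 lowest in both. Of 14 T and NK cell markers, 12 neutrophil markers, 17 cholangiocyte markers and 11 erythroid markers 0 passed, with medians of 0.09, −0.06, −0.10 and −0.32. Of 22 adipocyte, muscle and pancreas markers 4 were among the listed genes, and 0 passed. The part of these cell types in the called genes was not tested.

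**Figure D5:**
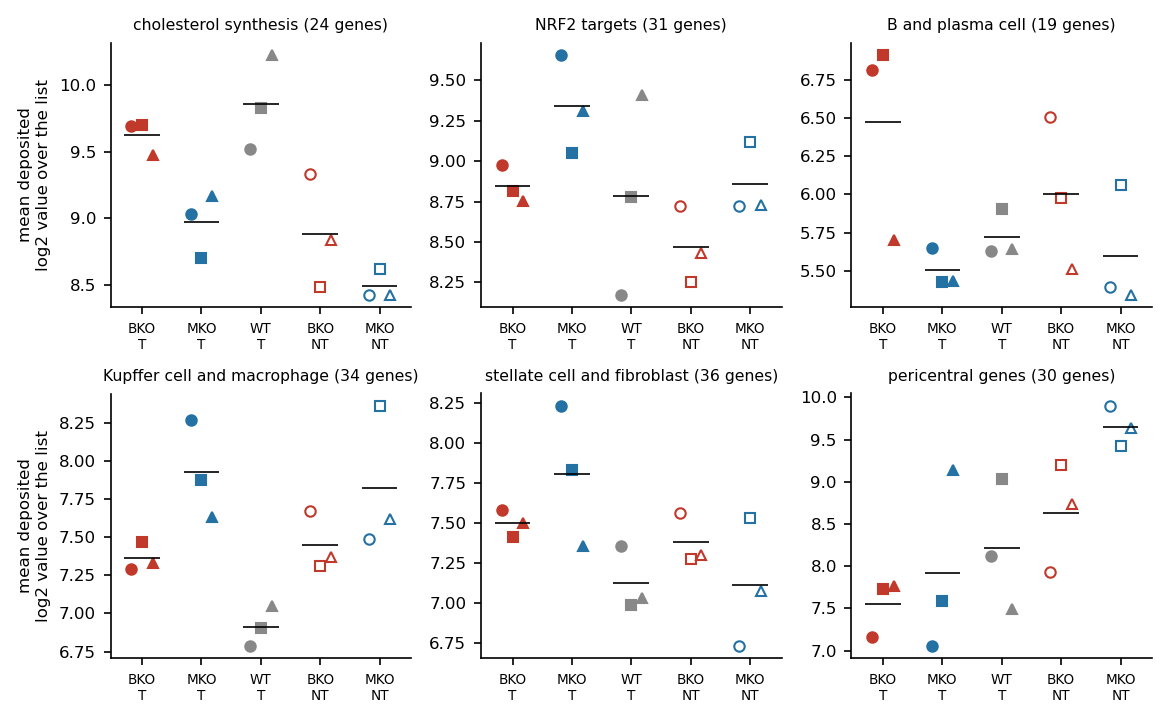
Mean deposited log2 value over each of 6 gene lists in every library (circle, square and triangle for replicates 1, 2 and 3) of BKO, MKO and WT tumours (T, filled) and BKO and MKO non-tumour liver (NT, open), with the group mean as a bar. Cholesterol synthesis separates BKO from MKO tumours in every library, B and plasma cell genes are high in 2 BKO tumours, and pericentral genes are high in MKO tumour replicate 3.

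Pericentral genes were asked about because β-catenin sustains them in normal liver. Of 30 measured, Blvrb fell and 0 rose, and 19 lay below 0 (median −0.29). The sign of the median rested on 1 library: without MKO tumour replicate 3 it was 0.20, with 1 gene still called. That library was the highest of the 6 for 26 of the 30 genes, where it was so for 19.2% of all genes. Glul, glutamine synthetase of the innermost pericentral layer, was read at 178.4, 550.1 and 586.0 in BKO and at 342.6, 777.2 and 4075 in MKO (−1.36 ± 0.57, adjusted p = 0.486, or −0.39 without that library). Cyp2e1, the cytochrome that activates DEN, was read at 130.8, 274.8 and 411.1 against 102.7, 505.4 and 2317 (−0.98, adjusted p = 0.788). Oat, ornithine aminotransferase, was read at 4.07, 7.90 and 8.28 against 9.15, 23.5 and 182.7 (−1.29, adjusted p = 0.498). The genotypes overlapped for Glul and Cyp2e1 and did not for Oat, whose difference without that library was −0.47 (adjusted p = 0.862). In WT tumours Glul was read at 2109, 3058 and 638.9, above every BKO tumour, and Cyp2e1 at 1267, 2812 and 234.3. In non-tumour liver the list's median was −0.84 and 3 genes were lower in BKO: Blvrb (−1.29), Glul (−2.35) and Cyp2c37 (−2.77).

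The promoters of the pericentral genes are shown for Cyp2e1, which followed MKO replicate 3, and for Blvrb, which separated the genotypes. The 250 bases before the start annotated by RefSeq (GRCm38.p6, plus strand of both genes) were searched on both strands for 4 forms of the motif read by TCF/LEF factors, the DNA-binding partners of β-catenin: CTTTG followed by AA, AT, TA or TT. Capitals mark the matches, read 5′ to 3′. The windows are chr7:140763569-140763818 for Cyp2e1 and chr7:27447728-27447977 for Blvrb.
Cyp2e1: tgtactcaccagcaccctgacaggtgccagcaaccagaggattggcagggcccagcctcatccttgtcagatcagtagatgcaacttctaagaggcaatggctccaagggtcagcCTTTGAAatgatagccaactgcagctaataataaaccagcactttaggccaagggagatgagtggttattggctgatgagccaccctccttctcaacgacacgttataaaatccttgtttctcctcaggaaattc
Blvrb: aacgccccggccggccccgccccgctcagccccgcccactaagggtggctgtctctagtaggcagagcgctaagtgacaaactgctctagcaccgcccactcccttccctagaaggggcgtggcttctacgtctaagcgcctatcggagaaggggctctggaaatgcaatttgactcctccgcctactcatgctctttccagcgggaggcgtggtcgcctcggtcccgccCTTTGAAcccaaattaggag
The match in Cyp2e1 begins 135 bases before the start and that in Blvrb 20 bases before it. RefSeq promoters were found for 23 of the 30 pericentral genes, and 9 held a match (39.1%), against 3 of 19 periportal genes (15.8%) and 4527 of 27025 symbols in the promoter table (16.8%). Among feedback genes of the WNT pathway 2 of 9 held a match (22.2%). Blvrb also has a second annotated start. Such letters are a description of the sequence and not evidence of binding.

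Of 17 measured feedback genes of the WNT pathway 0 passed, with a median of −0.04. Nkd2, an inhibitor of the pathway, was the 1 gene of the list whose libraries did not overlap, at 6.97, 4.21 and 5.18 in BKO and 12.2, 9.21 and 7.78 in MKO (−0.28, adjusted p = 0.617). Axin2, an inhibitor of the pathway and one of its direct targets, was barely read, at 0.581, 0.526 and 0.518 in BKO and at 0, 0.921 and 2.59 in MKO. Lgr5, the R-spondin receptor, was read at 5.81, 10.002 and 19.7 against 1.02, 8.29 and 27.9, and Tbx3, a transcription factor, at 8.14, 19.5 and 22.8 against 11.2, 30.9 and 82.9. Both overlapped between genotypes. Of 25 adherens junction and β-catenin turnover genes 0 passed. Lrp6, a WNT co-receptor, was read at 91.8, 103.2 and 107.2 in BKO and at 64.6, 75.6 and 55.1 in MKO, without overlap (0.49, adjusted p = 0.168), and passed in non-tumour liver (0.74, adjusted p = 0.00416).

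The receptors around MET did not pass either. Of 30 genes for MET, its ligand and other receptor kinases 0 were called (median 0.03). Axl, a receptor kinase of macrophages and stroma, was read at 245.3, 290.6 and 341.2 in BKO and at 676.6, 443.7 and 412.8 in MKO (−0.73, adjusted p = 0.3). Mst1r, the receptor closest in kind to MET, was read at 55.2, 52.6 and 30.5 against 13.2, 26.3 and 9.72 (0.87, adjusted p = 0.196). These groups did not overlap for either gene, and Hgf itself was read at 4.21 to 8.72 reads in BKO and 4.54 to 8.64 in MKO. ERK feedback and target genes had 0 of 24 called (median 0.02).

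Proliferation genes had 0 of 33 called and 24 above 0 (median 0.17). Mki67, a marker of cycling cells, was read at 32.0, 12.6 and 12.4 in BKO and at 7.12, 16.1 and 14.3 in MKO. Oncofetal and tumour genes had 1 of 30 called, Mirg. Afp, α-fetoprotein, was read at 137.8, 36.8 and 21.2 in BKO and at 146.4, 58.0 and 167.2 in MKO, and H19, an imprinted RNA, ranged from 106.3 to 4333 in BKO and from 272.5 to 1638 in MKO. The genotypes overlapped for all 3.

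Other metabolic and immune lists held no called gene. Urea cycle and amino acid genes had 33 of 41 below 0 (median −0.18, and −0.01 without MKO replicate 3, which was highest for 24 of them). That library was the highest of the 6 tumours for 19.2% of all genes. Male-biased liver genes had a median of 0.16, or 0.56 without that library. Cyp2d9 of that list was read at 7482, 7579 and 7323 in BKO and at 1553, 2143 and 7984 in MKO (1.31, adjusted p = 0.466). Of 24 antigen presentation genes, the class I gene H2-K1 came closest, at 18509, 13710 and 15138 in BKO against 8458, 13310 and 8946 in MKO (0.64 ± 0.16, adjusted p = 0.0794). Interferon-stimulated genes had 28 of 37 below 0 (median −0.17). The gluconeogenic phosphatase Fbp1 was read at 2009, 3080 and 3282 against 4460, 3832 and 4899 (−0.68, adjusted p = 0.0942). In all, 35 of the 40 lists held no gene that passed.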

How the data were processed

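RNA was measured in DEN-treated mouse liver by 3′ end counting (MAPS) on a HiSeq2000, per the labels' protocols. The submitters' processing notes name STAR 2.7.10a, HTSeq 2.0.2, DESeq2 1.32.0 and the build GRCm38/mm10. The authors deposited 1 table of log2 values after a variance-stabilising transform, for 12966 genes and 105 libraries, with a floor of 3.8289 that stands for 0 reads. Undoing the transform gave normalised reads and whole reads (100.0% of values within 0.05), used for levels and depth. The scale compresses low values, which understates differences where reads are few.

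Tests used limma 3.58.1 in R 4.3.3 on the deposited log2 values of all 45 libraries of sequencing group 2, with 1 mean for each of 15 groups, moderation with a trend and Benjamini-Hochberg adjustment over all genes. Calls needed an adjusted p under 0.05. The fit was tested on simulated data in which each gene had the same spread in every group. That test does not cover spread that differs between groups. Depth was 15964220 to 20231121 reads per tumour library. No library was a copy of another (lowest chi-square per gene 42.82 over 36 pairs of tumour libraries), and 0 columns were left out. Of the 12966 rows, 121 repeat another row and none of these is a called gene. Positions came from GENCODE and were found for 12690 genes.

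Same-numbered BKO and MKO tumours deviated from their group means with correlations of 0.15, −0.02 and 0.26, and those of unlike number with −0.31 to 0.24. So few values cannot settle whether the numbers pair the tumours of the genotypes. Tumour and non-tumour libraries of the same number correlated at 0.33, 0.23 and 0.24 in BKO and at −0.24, 0.34 and 0.33 in MKO. For libraries of unlike number the values ranged from −0.33 to 0.16 in BKO and from −0.54 to 0.35 in MKO. With so few libraries and no animal named in the labels, these values cannot settle whether the numbers pair the tissues. The comparison and the 40 gene lists were chosen with earlier results of these data known. Named genes are Ctnnb1 and Met, up to 14 rises and 14 falls, by size, of called genes without overlap, called genes of the interaction, up to 4 called members of each list or 2 of the highest mean, and up to 3 called genes at each locus. Other named genes were chosen after their values were seen, and 1 called gene and some list members are not reported here. Alternatives were a stricter filter, quantile normalization, fewer groups, no trend, library weights, a replicate block, limma-voom and leaving out 1 library. Those chosen after seeing the data were limma-voom scaled by total reads, a fit of the 3 tumour groups, and the block with only the compared groups.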

Additional observations from a re-analysis of the deposited data

Results flagged for a closer look

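Abcg8 and Srpx2 were singled out because the BKO against MKO difference in tumours was another one than in non-tumour liver by the test of that difference. For Abcg8 the tumour difference exceeded the non-tumour difference by 1.65 ± 0.31 (limma, adjusted p = 0.034): mean normalised reads were 926.0 in BKO and 879.3 in MKO tumours, and 503.0 and 1553 in non-tumour liver (n = 3 each). For Srpx2 it was lower by −1.19 ± 0.21 (adjusted p = 0.0184), with means of 17.96 and 35.0 in tumours and 42.4 and 19.4 in non-tumour liver. Neither was called when only the 4 groups concerned, or only the 8-month groups, were fitted.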

How the results depend on the processing

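The 30 calls between tumours depended most on which libraries set the spread. The median standard deviation over genes was 0.197 in BKO and 0.206 in MKO tumours. In the groups of 1 to 5 months, which also entered the main fit, it was 0.155 to 0.194. The number of calls was 7 with only the 8-month groups, 1 with only the compared groups or only the 3 tumour groups, and 0 with the replicate block in the compared groups. It was 23 with a stricter filter, which does not test 7 of the 30, 41 after quantile normalization, 22 with library weights, 30 with the replicate block or without a trend, and 39 with limma-voom. Scaling voom by total reads gave 50 (16 higher, 34 lower) and moved the median of all genes to −0.12. Leaving out 1 library gave 13 to 65 (13 without BKO replicate 2, 65 without MKO replicate 3, 46 without BKO replicate 3), and 7 genes passed in all 6 such fits: Limd1, Iglc1, Iglc3, Ppp1r9a, Mios, Fyco1 and Plbd1. Those fits kept the groups of 1 to 5 months. With only the 8-month groups Iglc1 (limma adjusted p = 0.339) and Iglc3 (0.0998) were not called, nor were Igkc, Iglc2 and Jchain. The interaction count of 2 was 0 with only the compared groups or the 8-month groups, 0 to 11 with 1 library left out, and 2 with the replicate block. The non-tumour count of 92 was 5 with only the compared groups, 20 with the 8-month groups, 48 with library weights, 56 with voom scaled by total reads, 90 with the replicate block and 37 to 119 with 1 library left out. No difference of a called gene changed sign under any of these. With 3 libraries a group, a gene that did not pass is not shown to be alike.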
